A study of Mus musculus with 10 samples.

Results

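The Ifi200 family is a cluster of interferon-inducible genes on mouse chromosome 1, and 10 of its genes were followed here in uteri with and without epithelial *Arid1a*. The members were taken by symbol, as the rows whose Ensembl identifiers a GRCm38 gene annotation gives as *Ifi202b*, *Ifi203*, *Ifi204*, *Ifi205*, *Ifi206*, *Ifi207*, *Ifi208*, *Ifi209*, *Ifi213* and *Ifi214*. All 10 were found among the 45706 genes of the count table, and all 10 passed the filter of a mean of at least 1 count per library. They lie between positions 173468485 and 174031810 of chromosome 1 (GRCm38), a stretch of 563.3 kb, with 8 genes on the minus strand and 2 (*Ifi208* and *Ifi209*) on the plus strand.

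Proteins of this family, also called PYHIN or AIM2-like receptors, typically join a pyrin domain, which binds other pyrin domains, to a HIN domain, which binds double-stranded DNA. Several act as sensors of DNA in the cytosol or nucleus, either through the STING pathway to type I interferon or, in the case of AIM2, through the inflammasome that activates caspase-1. Interferons raise the transcription of many members, macrophages and other leukocytes are a common source of their transcripts, and the gene content and expression of the cluster are known to vary between inbred mouse strains.

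The uteri were from mature adult females at gestation day (GD) 3.5, 5 of the control genotype *Arid1a* f/f and 5 of the genotype *Ltf* iCre/+ *Arid1a* f/f, called mutant here, each a separate library of part of a whole uterus. Both genotypes carry the floxed *Arid1a* alleles, and only the second carries Cre recombinase, expressed from the lactoferrin locus, which deletes *Arid1a* in the endometrial epithelium and can also be active in neutrophils and other myeloid cells. The females had been mated with wildtype males, and the colony had a mixed background of C57BL/6, 129S6/SvEvTac, 129P2/OlaHsd and 129S1/SvImJ, with littermates compared when possible. The strain origin of the cluster in each mouse was not read here. In whole uteri, fewer cells of a type and less RNA per cell cannot be told apart.

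The counts of a library added up to 59296537 to 72702411, so that 3 counts, the limit that a count of 0 allows, stood between 0.0418 and 0.0507 CPM (a gene's count scaled to the TMM-adjusted total of its library); such limits cover counting error only. *Arid1a* averaged 213 ± 22.9 CPM in controls and 185 ± 15.9 CPM in mutant uteri (SD, n = 5 each; edgeR adjusted p = 0.201), with 4 of the 5 mutant uteri below every control. All 13 listed uterine markers were measured. One library stood apart in leukocyte genes. The summed level of 7 neutrophil markers was 817 CPM in mutant uterus 5, against 5.36 to 13.6 CPM in controls and 7.30 to 12.3 CPM in the other mutant uteri, although the marker *Elane* was at or under the 3-count limit in every library. Control uterus 1 was unlike the other controls in a set of genes on many chromosomes, described below with *Ifi202b*. Log2 fold changes are given without mutant uterus 5 or control uterus 1 where stated, and not for every gene.

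The members were chosen by family name, with their genotype differences in these data already known: what selected them was the per-library count of each gene and its log2 fold change. Those values are therefore a description. Where a member is said to be past or not past the threshold, this records its place in the fit over all genes, as a label that supports nothing further, and no p is given for it. The family did not move as a block. Against the control mean, *Ifi206*, *Ifi209* and *Ifi208* stood higher in mutant uteri with no overlap between genotypes, *Ifi202b* was nearly absent from all 5 of them, and *Ifi203* averaged 63.0 ± 9.61 CPM in controls and 63.4 ± 16.2 CPM in mutant uteri. In edgeR's quasi-likelihood fit over 25146 genes, 7 members had a positive and 3 a negative log2 fold change, from −8.97 to 2.76, with a median of 0.47 (0.03 over all genes tested). The threshold of the fit, an adjusted p under 0.05, was passed by 3 members in the higher direction and 1 in the lower direction. For reference only, since the members were chosen with these values known, it was passed by 9.70% of all genes tested, 5.19% in the higher and 4.51% in the lower direction, and 3 of the 10 members had values that did not overlap between genotypes, against 10.7% of all genes. The member nearest inside the threshold was *Ifi208*, with a log2 fold change of 1.06 (SE 0.30), and the nearest outside were *Ifi205* at −0.68 (SE 0.32) and *Ifi213* at 2.45 (SE 1.02). The 3 members past the threshold in the higher direction lay in the part of the cluster toward *Aim2*, with *Ifi214* and *Ifi213*, not past it, between them, and *Ifi202b* lay toward the opposite end. Without control uterus 3 the number past the threshold was 1, that is *Ifi202b* alone, and without mutant uterus 5 it was 3.

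**Figure D1:**
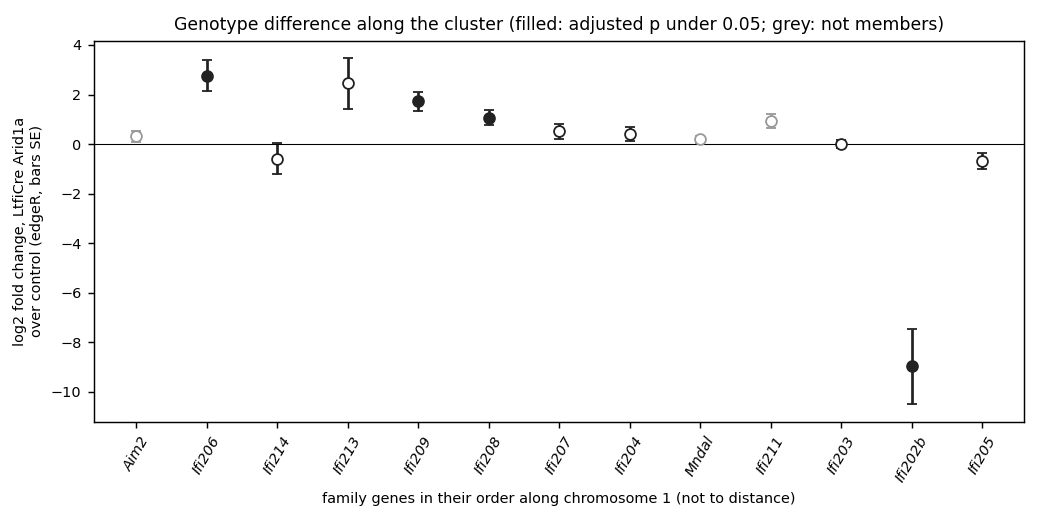
Log2 fold change (mutant over control, edgeR, n = 5 uteri each, bars SE) of the 10 members in black and of *Aim2*, *Mndal* and *Ifi211* in grey, in their order along chromosome 1 and not to distance. Filled points have an adjusted p under 0.05; *Ifi206*, *Ifi209* and *Ifi208* sit above 0 and *Ifi202b* at −8.97.

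The family arose by duplication, and the promoters show which members are close copies. RefSeq windows of 300 bases (250 before to 50 after a gene's start, GRCm38.p6, the C57BL/6J reference) were matched by symbol for 9 of the 10 members, all but *Ifi204*. The windows of *Ifi208* and *Ifi213* were 98.9% identical over their aligned bases, those of *Ifi206* and *Ifi208* 98.9%, those of *Ifi206* and *Ifi213* 98.5%, those of *Ifi209* and *Ifi214* 95.7%, and those of *Ifi205* and *Ifi207* 86.6%. The letters GAAANNGAAA, a form of the interferon-stimulated response element, were searched on both strands, and 7 of the 9 members held a match (*Ifi203* in 1 of its alternative windows), against 3.99% of the 27025 mouse genes with a RefSeq promoter window (3.44% of windows). The 60 bases around it are given for these members because they include the members that were higher in mutant uteri and their close copies. Capitals mark the match, in *Ifi209* they mark the bases aligned with the match of *Ifi214*, and *Ifi202b* has none.
Ifi206, chr1:173491324-173491383, minus strand: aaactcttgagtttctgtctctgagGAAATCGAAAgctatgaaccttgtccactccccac
Ifi213, chr1:173599311-173599370, minus strand: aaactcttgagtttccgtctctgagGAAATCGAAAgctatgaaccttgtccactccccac
Ifi208, chr1:173673582-173673641, plus strand: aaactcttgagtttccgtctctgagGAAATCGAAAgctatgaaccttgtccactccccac
Ifi214, chr1:173536002-173536061, minus strand: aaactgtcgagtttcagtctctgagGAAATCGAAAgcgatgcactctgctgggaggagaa
Ifi209, chr1:173630755-173630814, plus strand: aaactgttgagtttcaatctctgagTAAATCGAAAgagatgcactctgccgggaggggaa
Ifi207, chr1:173741816-173741875, minus strand: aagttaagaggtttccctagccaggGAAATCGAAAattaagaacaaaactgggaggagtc
Ifi203, chr1:173942493-173942552, minus strand: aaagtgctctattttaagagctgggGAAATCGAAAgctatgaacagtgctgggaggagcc
Ifi205, chr1:174031855-174031914, minus strand: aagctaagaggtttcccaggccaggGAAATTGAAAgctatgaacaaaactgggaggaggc
Ifi202b, chr1:173982845-173982904, minus strand: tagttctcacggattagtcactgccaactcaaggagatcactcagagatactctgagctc

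In *Ifi209* the aligned bases differ from the letters searched by 1 substitution, G1T, counted from the first base in capitals with the base of *Ifi214* first. The window of *Ifi214* is the closest to that of *Ifi209*. Whether the match bears on the level of any member was not tested. A second set of letters, TTCNNNGAA, the core form of a STAT site, was found in 9.55% of these genes (8.30% of windows) and, among the members with a window, in that of *Ifi202b* only, which lacked GAAANNGAAA. These matches describe the letters of the reference strain and not sites shown to be bound, and the upstream sequence of the cluster in these mice was not read.

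Levels per kilobase of exon placed the members over a wide range. In controls the order from the highest was *Ifi202b* (10.6 ± 7.39 CPM per kb), *Ifi203* (9.39 ± 1.43), *Ifi204* (5.01 ± 0.813), *Ifi205* (2.89 ± 1.43), *Ifi207* (2.66 ± 0.538), *Ifi209* (1.14 ± 0.335), *Ifi208* (0.276 ± 0.0904), *Ifi213* (0.193 ± 0.255), *Ifi206* (0.176 ± 0.157) and *Ifi214* (0.0756 ± 0.0428), each SD over 5 uteri. Neighbours in this order overlapped within their SD, except *Ifi203* and *Ifi204*, *Ifi207* and *Ifi209*, and *Ifi209* and *Ifi208*. In mutant uteri *Ifi203* (9.45 ± 2.42 CPM per kb) and *Ifi204* (6.65 ± 3.34) came first, and *Ifi209* reached 3.77 ± 2.33, beside *Ifi207* at 3.83 ± 2.18. *Ifi202b* went from the top of the order to the bottom, at 0.0196 ± 0.0301 CPM per kb.

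**Figure D2:**
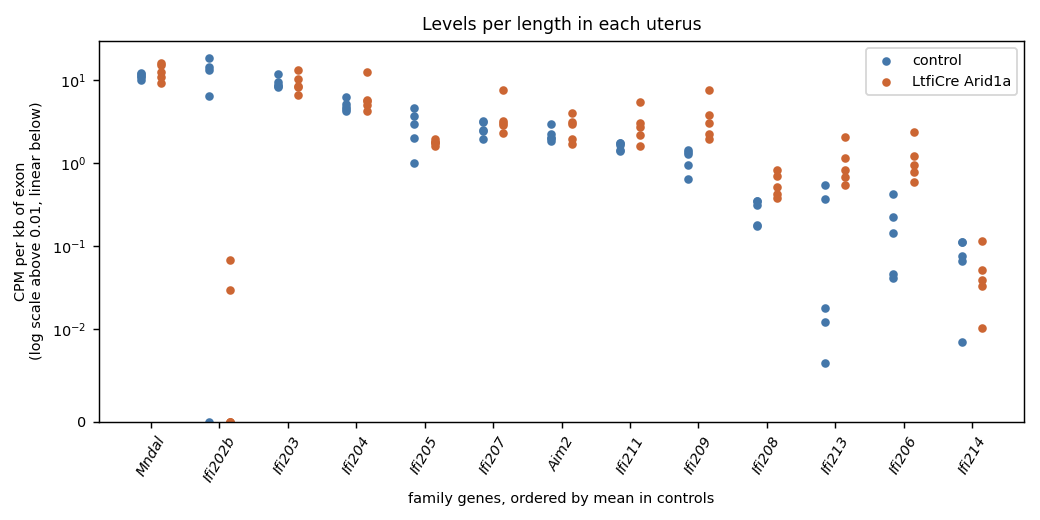
CPM per kilobase of exon in each of the 10 uteri (log scale above 0.01, linear below) for the members and for *Mndal*, *Aim2* and *Ifi211*, ordered by their control means. Blue points are control and orange points mutant uteri; *Ifi202b* has 1 control among the near-zero points, and *Ifi213* has 3 controls far below the others.

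*Ifi202b* encodes p202, a protein with HIN domains and no pyrin domain, which binds DNA and inhibits AIM2, and it is known for little or no transcript in C57BL/6 mice and for high levels in some other strains. Its counts in controls 1 to 5 were 0, 1620, 2027, 769 and 1718, which are 0, 22.6, 31.8, 10.9 and 24.7 CPM. In mutant uteri 1 to 5 the counts were 0, 3, 0, 0 and 8, which are 0, 0.0507, 0, 0 and 0.116 CPM. Thus 4 controls expressed the gene at 10.9 CPM or more, and the remaining control held no read of it, like 3 of the mutant uteri. In control 1 a count of 0 allows up to 0.0420 CPM. The means were 18.0 ± 12.5 CPM and 0.0333 ± 0.0511 CPM, and the fitted log2 fold change was −8.97 (SE 1.52), a value that depends on the prior count. It ran from −10.35 to −8.65 when each uterus was left out in turn, and was −9.30 without control 1. No stretch of 50 bases of its transcript, the read length, is shared with the transcript of another gene.

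*Ifi205*, the neighbour of *Ifi202b* and a pyrin and HIN protein described in macrophages, also varied within controls. Its controls 1 to 5 stood at 4.20, 19.6, 15.5, 8.55 and 12.6 CPM and its mutant uteri at 7.42, 7.62, 6.83, 7.58 and 8.23 CPM. Control 1 was the lowest of the 10 uteri and controls 2, 3 and 5 were the 3 highest, so the order of the controls is close to that for *Ifi202b*. The coefficient of variation was 49.5% in controls and 6.64% in mutant uteri. The means of 12.1 ± 5.98 and 7.54 ± 0.500 CPM gave a log2 fold change of −0.68 (SE 0.32), which was not past the threshold. It passed at −0.90 without control 1.

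*Ifi214* was the lowest member per length, with 5 to 64 counts in controls and 5 to 65 in mutant uteri. Its controls 1 to 5 stood at 0.0699, 0.627, 0.909, 0.540 and 0.919 CPM and its mutant uteri at 0.267, 0.0845, 0.425, 0.320 and 0.940 CPM. Control 1 was again the lowest, mutant uterus 5 was the highest, and the genotypes overlapped, with a log2 fold change of −0.58 (SE 0.64) that was −1.15 without uterus 5. Without control 1 the log2 fold change was −0.87.

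*Ifi206*, *Ifi213* and *Ifi208*, the members with nearly identical promoters, all had higher means in mutant uteri, without overlap between genotypes for *Ifi206* and *Ifi208* and with overlap for *Ifi213*. *Ifi206* stood at 1.29, 0.126, 0.439, 0.696 and 0.144 CPM in controls 1 to 5 and at 2.43, 1.83, 2.88, 3.78 and 7.34 CPM in mutant uteri 1 to 5. The genotypes did not overlap, and control 1 was the highest control. The means of 0.538 ± 0.480 and 3.65 ± 2.18 CPM gave a log2 fold change of 2.76 (SE 0.63), which was 2.34 without mutant uterus 5 and 2.68, no longer past the threshold, without control 3. Without control 1 the log2 fold change was 3.37.

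*Ifi213*, also named *Pydc4*, had a split in controls that ran opposite to that of *Ifi202b*. Its counts in controls 1 to 5 were 270, 6, 8, 180 and 3, or 3.78, 0.0836, 0.125, 2.56 and 0.0431 CPM. In mutant uteri 1 to 5 they were 299, 219, 345, 540 and 988, or 4.69, 3.70, 5.64, 7.84 and 14.3 CPM. Controls 2, 3 and 5, which had the most *Ifi202b*, were near 0, control 1, without *Ifi202b*, was above mutant uterus 2, and control 4 was intermediate for both genes. The means were 1.32 ± 1.74 and 7.23 ± 4.23 CPM, and 4 of the 5 mutant uteri were above every control. The log2 fold change of 2.45 (SE 1.02) was not past the threshold, and without control 1 it was 3.36. Without mutant uterus 5 it was 2.05.

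*Ifi208*, also named *Pydc3*, stood at 1.86, 0.934, 0.940, 1.86 and 1.65 CPM in controls and at 2.27, 1.99, 2.75, 3.69 and 4.41 CPM in mutant uteri. Every mutant uterus was above every control, although controls 1 and 4, at 1.86 CPM each, were close to the lowest of them. The means were 1.45 ± 0.475 and 3.02 ± 1.01 CPM, and the log2 fold change of 1.06 (SE 0.30) fell short of the threshold in 9 of the 10 fits that left out a uterus, at 0.88 to 1.17.

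*Ifi209*, also named *Pyhin1* and a pyrin and HIN protein, had the highest level of the members that did not overlap. Its controls stood at 4.60, 2.30, 3.38, 5.16 and 4.82 CPM and its mutant uteri at 8.09, 7.00, 10.9, 13.5 and 27.5 CPM. Control 1 lay among the other controls here, and uterus 5 was again the highest. The means of 4.05 ± 1.19 and 13.4 ± 8.28 CPM gave a log2 fold change of 1.72 (SE 0.37), which was 1.28 without mutant uterus 5 and 1.66, no longer past the threshold, without control 3.

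*Ifi204*, whose product senses DNA and is regarded as the nearest mouse counterpart of human IFI16, differed between genotypes through 1 uterus. It stood at 15.3, 18.3, 22.6, 17.1 and 15.9 CPM in controls and at 20.3, 17.8, 15.3, 20.5 and 44.6 CPM in mutant uteri. Only uterus 5 was above the highest control. The log2 fold change was 0.41 (SE 0.26), not past the threshold, and 0.05 without that uterus.

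*Ifi207* had a similar form, with 6.73, 8.60, 11.1, 8.32 and 10.8 CPM in controls and 9.82, 10.3, 7.90, 11.2 and 26.3 CPM in mutant uteri. Uterus 4 was just above the highest control and uterus 5 far above it. The log2 fold change of 0.52 (SE 0.30), not past the threshold, was 0.11 without uterus 5. *Ifi203*, the member with the most counts, stood at 56.6, 58.6, 79.2, 56.2 and 64.2 CPM in controls and at 56.5, 45.2, 57.9, 69.3 and 88.1 CPM in mutant uteri. Its log2 fold change of 0.01 (SE 0.17) changed sign with the uteri included, from −0.14 to 0.11. mutant uterus 5 was the highest of its genotype for all 10 members and the highest of all uteri for every member but *Ifi202b* and *Ifi205*.

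**Figure D3:**
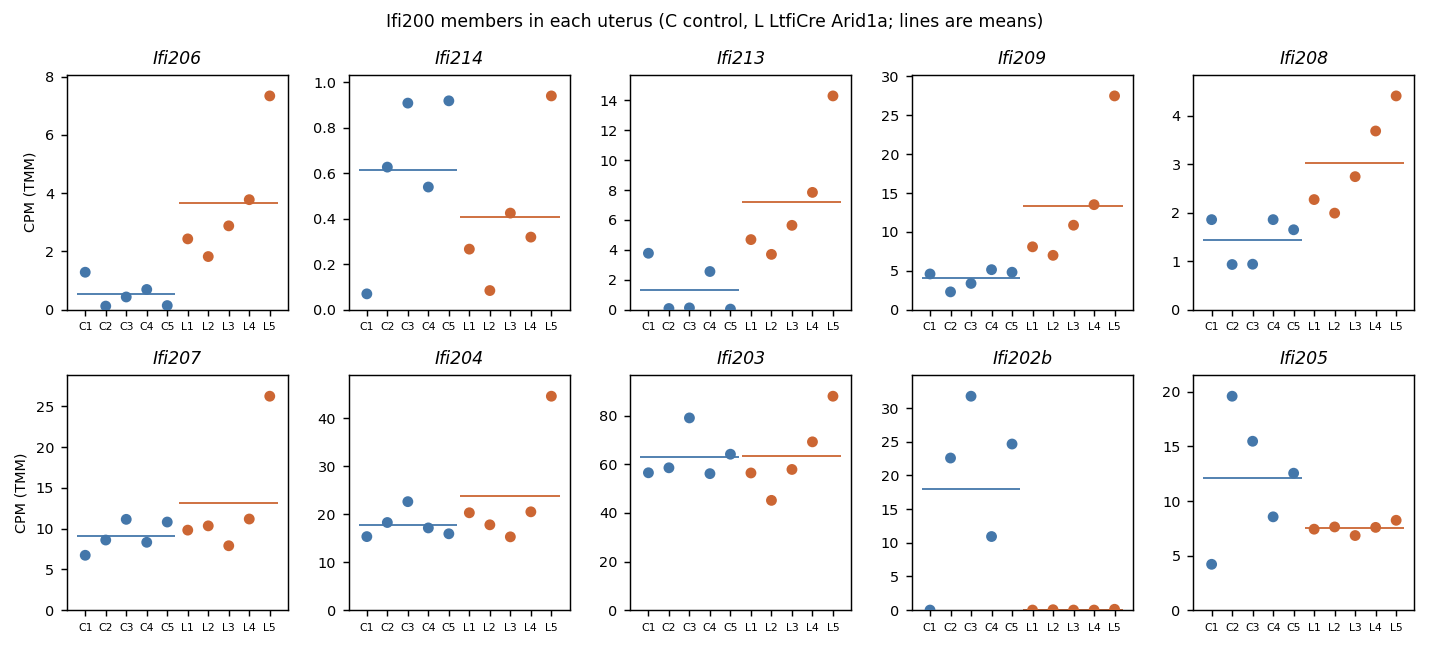
CPM (TMM library sizes, linear axes from 0) of the 10 members in control uteri 1 to 5 (C, blue) and mutant uteri 1 to 5 (L, orange), in their order along chromosome 1, with lines at the genotype means. Control 1 has no *Ifi202b* and the lowest *Ifi205*, and L5 is the highest point in every panel but those of *Ifi202b* and *Ifi205*.

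Some members share sequence, which limits how their reads can be told apart. Of the 50-base stretches in the transcripts of *Ifi209*, 33.7% occur in another gene, nearly all in *Ifi214*. The share was 25.6% for *Ifi206*, 20.8% for *Ifi208* and 15.6% for *Ifi213*, with each other as the leading partners of *Ifi208* and *Ifi213*. It lay between 7.3% (*Ifi207*) and 18.6% (*Ifi205*) for most of the rest, and *Ifi204* shared 14.8% with *Ifi211* alone. *Ifi203* shares 37 bases of exon with *Mndal* on the same strand, and no member overlaps an exon of the opposite strand. These shares count single stretches, whereas the libraries were sequenced as paired reads of 50 bases, so the share of ambiguous pairs was not measured. The values of these members are uncertain where a pair cannot be placed, and more so where a mouse carries an allele that differs from the reference.

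The other family genes of the cluster are *Aim2*, the inflammasome sensor of cytosolic DNA, *Mndal* and *Ifi211*, and they were not used to choose the members. *Mndal* was the highest family gene per length in the mean of all uteri (12.1 ± 2.20 CPM per kb, n = 10). None of the 3 passed the threshold in edgeR. *Aim2* averaged 7.83 ± 1.56 CPM in controls and 9.70 ± 3.29 CPM in mutant uteri (log2 fold change 0.31, SE 0.23; edgeR adjusted p = 0.454). *Mndal* averaged 40.7 ± 2.81 and 46.8 ± 10.6 CPM (log2 fold change 0.20, SE 0.14; edgeR adjusted p = 0.416). Without mutant uterus 5 its log2 fold change was 0.10. *Ifi211* averaged 2.85 ± 0.305 and 5.38 ± 2.63 CPM (log2 fold change 0.92, SE 0.29; edgeR adjusted p = 0.0651), with 9.77 CPM in uterus 5, a log2 fold change of 0.59 without it, and a call without mutant uterus 3 (1.07) and in DESeq2 (0.92). Of its 50-base stretches 72.8% occur in another gene, mostly *Ifi205*.

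The genes most like *Ifi202b* were ranked by Pearson's r of log2 CPM over the 10 uteri among 17690 non-member genes with a mean of at least 20 counts. The 10 highest had r of 0.975 to 0.990 and lay on chromosomes 17 (*Gm7809* and *Gm7335*), 1 (*Tdpx-ps1*, 74.17 Mb away), 3 (*Gm10704*), 4 (*Zfp990*), 11 (*Tmem92*), 18 (*Eno1b*), 7 (*Gm7224*), 8 (*Zfp868*) and 2 (*Gm14026*). Because the values of *Ifi202b* fall into uteri near 0 and uteri at 10.9 CPM or more, r follows that split, and no p is given. *Zfp990*, a zinc finger gene, stood at 0.126, 21.1, 27.4, 29.8 and 33.7 CPM in controls 1 to 5 and between 0.135 and 0.477 CPM in mutant uteri. *Eno1b*, an enolase gene, stood at 0.308, 11.2, 12.0, 11.4 and 9.14 CPM in controls and between 0.253 and 0.579 CPM in mutant uteri. In all 10 of these genes control 1 was at or below the highest mutant uterus, while control 4 was with controls 2, 3 and 5 for most of them and not intermediate as for *Ifi202b*.

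The 5 most unlike genes, with r of −0.987 to −0.975, were *Npm3-ps1* on chromosome 6, *Mri1* on 8, *Rab6b* on 9, and *Gm37827* and *Pop4* on 7. *Rab6b*, a vesicle transport GTPase, stood at 41.0, 4.85, 4.59, 4.83 and 3.93 CPM in controls and at 29.8, 32.6, 30.3, 27.0 and 27.0 CPM in mutant uteri. *Pop4*, a subunit of RNase P, stood at 26.8, 11.9, 9.79, 11.8 and 13.6 CPM in controls and between 26.4 and 32.0 CPM in mutant uteri. For each of the 5, control 1 was at or above the lowest mutant uterus and every other control was below it. At an absolute r of 0.9 or more there were 94 positive genes on 20 chromosomes and 61 negative genes on 17, of 17690 compared. On chromosome 1 lay 10 of the positive and 8 of the negative genes, and 3 of the 199 genes compared within 10 Mb of *Ifi202b* were among them. All were picked for repeating the split of *Ifi202b*, so the split in them is a description. How many genes would reach such an r by chance was not tested. Whether strain background differed between uteri was not tested either.

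**Figure D4:**
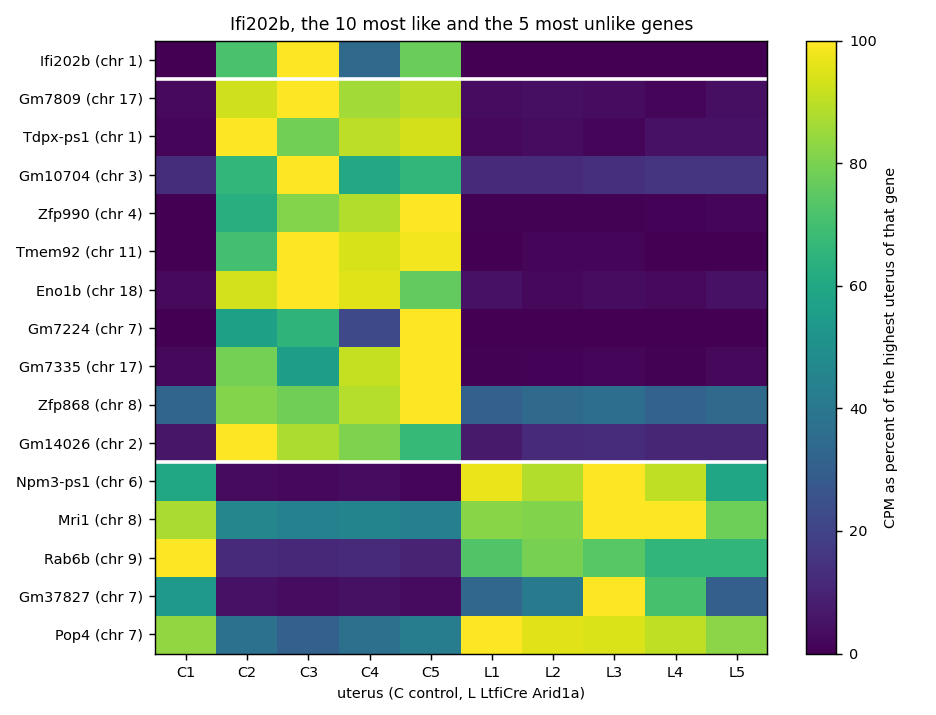
CPM of *Ifi202b*, the 10 genes with the highest r to it and the 5 with the lowest, as percent of each gene's highest uterus (colour scale 0 to 100), in controls C1 to C5 and mutant uteri L1 to L5, with each gene's chromosome. The genes were picked for this likeness; column C1 has the colours of L1 to L5 rather than those of C2 to C5.

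The mean of the other members, each scaled to its own mean, was most like 5 genes of leukocytes and other cells, with r of 0.943 to 0.956 over the 10 uteri. These 5 were picked for this likeness from 17690 genes, against values already known when the members were chosen, so no p is given. At an absolute r of 0.9 or more there were 68 positive and 89 negative genes, and what they have in common was not tested. They were *Mir155hg*, the host gene of miR-155, *Ctla4*, a T cell inhibitory receptor, *Tnf*, the inflammatory cytokine, *Trpm2* and *Clec2g*. *Tnf* stood between 0.359 and 0.830 CPM in controls, and at 3.33 CPM in mutant uterus 4 and 16.4 CPM in mutant uterus 5. *Ctla4* stood between 0.265 and 0.373 CPM in controls and at 0.768, 0.693, 0.916, 1.32 and 3.31 CPM in mutant uteri. Uterus 5 was the highest for all 5 genes, and without the 2 uteri farthest from the median r was 0.828 to 0.909.

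Of the leukocyte marker lists, that of T cells did not overlap between genotypes and the others did. Summed T cell markers ran from 12.5 to 15.8 CPM in controls and from 26.0 to 80.7 CPM in mutant uteri, and 4 of 6 passed the threshold in the higher direction. For reference beside this and the next lists, 9.70% of all genes tested passed it, 5.19% in the higher and 4.51% in the lower direction. Summed macrophage markers ran from 203 CPM, in control 1, to 382 CPM in controls and from 320 to 744 CPM, in uterus 5, in mutant uteri, with 0 of 10 past the threshold. The ranges in controls and in mutant uteri were 460 to 786 and 360 to 1060 CPM for 7 inflammatory monocyte markers, of which 1 rose. They were 49.1 to 62.8 and 53.7 to 99.5 CPM for 6 dendritic cell markers, of which 1 fell, and 5.87 to 12.2 and 3.08 to 24.6 CPM for 5 B cell markers, of which 0 passed. Of the 7 neutrophil markers 6 were tested and 1 rose. The 13 uterine markers summed to 6850 to 10300 CPM and 4530 to 8140 CPM, with 3 higher and 2 lower. The part of these cells in the members' values was not tested.

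Non-member genes within 2 Mb of the outermost members showed whether the cluster's neighbourhood differed between genotypes. Of 130 annotated genes 76 were tested, and 14 passed the threshold, 11 higher and 3 lower (18.4%, against 9.70% of all genes tested), with a median log2 fold change of 0.21. Those described with values were chosen for size. *Atp1a4*, a sodium pump subunit, fell from 0.539 ± 0.397 to 0.0363 ± 0.0391 CPM (log2 fold change −3.80; edgeR adjusted p = 0.0271). Control 1, at 0.0280 CPM, was within the range of the mutant uteri and far below the other 4 controls, which ran from 0.312 to 0.976 CPM. It held 2 counts, under the 3-count limit, and mutant uteri 1 to 5 held 0, 0, 4, 6 and 2. These values are too low to be ranked among themselves. Control 1 had this position for *Ifi202b* too.

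The largest rises in the neighbourhood were of low genes. *Gm37145* rose from 0.0480 ± 0.0680 to 0.942 ± 0.695 CPM (log2 fold change 4.23; edgeR adjusted p = 0.0124) and *Gm10521* from 0.230 ± 0.137 to 1.15 ± 0.550 CPM (2.31; edgeR adjusted p = 0.0139). The control counts of *Gm37145* were 12, 2, 1, 0 and 2, mostly under the 3-count limit. The pseudogene *Tma7-ps* rose from 0.121 ± 0.0582 to 0.868 ± 0.802 CPM (2.82; edgeR adjusted p = 0.0270), and the pseudogene *Gm18752*, which lies within the cluster, from 0.0179 ± 0.0174 CPM, near the 3-count limit, to 0.133 ± 0.0394 CPM (2.80; edgeR adjusted p = 0.0199). Others that passed were *Casq1*, lower, and *Igsf9*, *Slamf1*, *Slamf7*, *Slamf8*, *Cd48*, *Cd84* and *Exo1*, higher, of which *Slamf1*, *Slamf7*, *Slamf8*, *Cd48* and *Cd84* are leukocyte receptors of the SLAM family. The count was 7 without control 2 and 8 without control 3. When each uterus was left out in turn, *Gm37145*, *Gm10521*, *Casq1*, *Igsf9* and *Slamf8* stayed past the threshold in all 10 fits, *Atp1a4* lost its call without control 2, 3 or 5 (−3.84 to −3.48), *Gm18752* without control 4 (2.74), and *Tma7-ps* in 6 fits. *Slamf1*, *Cd48* and *Cd84* each lost their call in 7 of the 10 fits, *Slamf7* without control 2 (1.02) or 3 (0.99), and *Exo1* without control 2 (0.99).

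The rest of the pathway was covered by 3 lists. Of 20 genes of DNA sensing 19 were tested, 18 had a positive log2 fold change (median 0.31) and 2 rose. Over all genes tested, 13252 of 25146 had a positive log2 fold change (median 0.03). With 2 of 19 past the threshold, the list was close to the 9.70% over all genes (5.19% in the higher direction). *Cgas*, the enzyme that makes the STING ligand on binding DNA, stood at 13.3 ± 1.73 CPM in controls and 19.0 ± 1.99 CPM in mutant uteri, without overlap (log2 fold change 0.52; edgeR adjusted p = 0.0217). *Il18*, the cytokine that caspase-1 matures, stood at 4.83 ± 0.661 and 9.14 ± 1.14 CPM, without overlap (0.92; edgeR adjusted p = 0.00443). *Cgas* lost its call without control 2, 4 or 5 (0.45 to 0.52), and *Il18* kept it in all 10 fits.

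Of 17 genes of interferon receptor signalling 16 were tested, 10 had a positive log2 fold change (median 0.24) and 3 passed. Those 3 are 18.8% of the genes tested in this list, against 9.70% over all genes. *Ifngr1*, a chain of the interferon gamma receptor, rose from 62.2 ± 5.37 to 117 ± 41.0 CPM (0.91; edgeR adjusted p = 0.0189), while the receptor kinases *Jak2* (352 ± 39.0 to 257 ± 22.4 CPM, −0.45; edgeR adjusted p = 0.0170) and *Jak1* (395 ± 39.3 to 292 ± 28.2 CPM, −0.43; edgeR adjusted p = 0.0206) fell. Without control 3, *Ifngr1* (0.87) and *Jak1* (−0.40) were not past the threshold. The log2 fold change of *Ifngr1* was 0.74, still past it, without mutant uterus 5.

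Of 22 interferon-stimulated genes all were tested, 18 had a positive log2 fold change (median 0.39) and 2 passed, in opposite directions. Those 2 are 9.09% of the list, against 9.70% over all genes. *Mx1*, an antiviral GTPase, rose from 4.28 ± 1.78 to 11.1 ± 4.44 CPM (1.38; edgeR adjusted p = 0.0265), and *Ddx58*, the RNA sensor RIG-I, fell from 142 ± 20.6 to 105 ± 11.9 CPM (−0.44; edgeR adjusted p = 0.0346). *Mx1* lost its call without control 2, 4 or 5 (1.34 to 1.38), and *Ddx58* in 6 of the 10 fits that left out a uterus, among them those without control 1 (−0.40) and control 3 (−0.39). Over these lists and the other family genes together, 7 of 59 genes passed (11.9%, against 9.70% of all genes tested), 4 higher and 3 lower. The count was 4 without control 2 and 12 without mutant uterus 3.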

How the data were processed

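RNA of 10 whole uteri, 5 control *Arid1a* f/f and 5 *Ltf* iCre/+ *Arid1a* f/f (mutant), was sequenced as mRNA libraries. Reads were trimmed by the authors (Trim Galore 0.6.4 and cutadapt 1.18), checked with FastQC 0.11.9 and aligned to GRCm38 with STAR 2.7.3a, and the authors deposited the whole-number count of reads per gene, without normalization. The annotation release and strand setting are not given in the sources used here. Totals were 65351817 to 72702411 counts in controls and 59296537 to 67990486 in mutant uteri. No pair of libraries within a genotype agreed within sampling noise (chi-square per gene of at least 33.3 in 20 pairs). The uteri are separate libraries, and p-values measure the spread between them.

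Symbols came from a GENCODE annotation of GRCm38, with 45143 of 45706 identifiers matched. Genes averaging 1 count or more were tested with edgeR 4.0.16 in R 4.3.3 (TMM, quasi-likelihood test, genotype as the factor, Benjamini-Hochberg over 25146 genes, threshold 0.05). SEs are of the same fit. DESeq2 1.42.0 was the alternative test, and other alternatives covered size factors, filters, a replicate block and the omission of each uterus. The members, lists and markers were chosen with earlier results of these data known. Named genes were all members and other family genes, up to 6 called genes per list by absolute log2 fold change, the 10 most and 5 least like *Ifi202b*, and the 5 most like the other members. The like lists used log2 CPM with a prior count of 2. Among the listed names *Pyhin1*, *Pydc3*, *Pydc4* and *Mnda* are older names of *Ifi209*, *Ifi208*, *Ifi213* and *Ifi211*. The fits were tested on simulated counts of 24583 genes, of which 200 were changed by a log2 fold change of 2 in either direction. edgeR recovered 91.0% of these and called 6 unchanged genes, and with the replicate block 87.5% and 9. DESeq2 recovered 95.5% and called 64 unchanged genes, which limits calls that DESeq2 alone made. The simulated counts were drawn with edgeR's own dispersion estimates and held no outlying uterus. They therefore cannot show how edgeR's calls fare with such a uterus. Promoter windows came from RefSeq and were aligned with Biopython 1.88. Protein sequences were not used here. One neighbouring gene that the naming rule picks is not reported here.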

Additional observations from a re-analysis of the deposited data

Results flagged for a closer look

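A Dixon test of the highest and lowest value in each genotype, over 40 groups of 5 uteri covering the members, the other family genes and the marker sums, picked out 5 groups. Chance picks about 1 in 20 groups, a rate that does not apply to the members' groups, since the members were chosen with their values known, and *Ifi204* and *Ifi207* are given as values only. In mutant uterus 5 *Ifi204* stood at 44.6 CPM, with the nearest uterus of its genotype at 20.5 CPM. *Ifi207* stood at 26.3 CPM in the same uterus, with the nearest at 11.2 CPM. The summed macrophage markers of that uterus reached 744 CPM, with the nearest at 424 CPM, and its summed neutrophil markers 817 CPM, with the nearest at 12.3 CPM. *Ltf*, the gene that carries Cre, was also highest there, at 2831 CPM. It stood at 383, 23.6, 39.8 and 290 CPM in mutant uteri 1 to 4 and between 2.2 and 11.7 CPM in controls. Its level was not taken as a measure of Cre, and the cells it came from were not tested. In mutant uterus 4 the summed dendritic cell markers stood at 99.5 CPM, with the nearest at 63.0 CPM.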

How the results depend on the processing

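The number of members past the threshold, 4, was 3 or 4 under the other size factors, DESeq2, the other filters, the replicate block and the omission of mutant uteri 1 and 5 together, an alternative chosen after seeing the data. edgeR's filterByExpr removed *Ifi202b*. Leaving out each uterus in turn gave 1 to 4, the lowest without control 3. The neighbouring genes past the threshold, 14, were 21 in DESeq2, 9 with the replicate block and 7 to 15 over the omissions. The pathway genes, 7, were 14 in DESeq2 and 4 to 12 over the omissions, the lowest without control 2 and the highest without mutant uterus 3. Over all genes the calls, 2438, were 4103 in DESeq2, 1704 with the block, 1204 without control 2, 1248 without control 3, 1414 without control 4 and 1637 to 2381 without another uterus. The cause of these changes was not tested. The log2 fold change of *Ifi203*, 0.01, was −0.0136 with the replicate block, −0.14 to 0.11 over the omissions and −0.13 without mutant uteri 1 and 5. No other member changed sign under these settings.

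Same-numbered uteri did not deviate together (r of −0.128 to 0.189, over 0.1 in 1 of 5 pairs, and 1 of 5 controls was most like its own number), so the numbers were not taken to pair the mice. With the replicate block 4 members, 9 neighbouring genes and 7 pathway genes passed.

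Members with few reads, such as *Ifi214*, are limited by counting error, and reads shared between copies cannot be assigned. With 5 uteri a genotype, 1 uterus can decide a call.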
